A study of Mus musculus with 8 samples.

Results

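A set of 10 genes that encode ADAMTS proteases or ADAMTS-like proteins was followed in lungs taken whole from mouse embryos of embryonic day 14.5. They are 10 of the 22180 genes tested: the proteases Adamts1, Adamts5, Adamts9, Adamts16, Adamts17 and Adamts18, and the ADAMTS-like genes Adamtsl1, Adamtsl2, Adamtsl3 and Adamtsl4. The genes were selected on earlier results of these same data, the genotype difference included, and the probe set of a gene was to be the one with the highest mean over the 8 arrays. Each of the 10 had a single probe set, so this last step left nothing to choose. Because of that selection, the number of members that differ by genotype describes the chosen genes and is not evidence about the family.

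The mutant group held 4 embryos of the genotype Shh-cre:Ezh2-flox/flox, in which Cre recombinase is made under Shh and both copies of the histone methyltransferase gene Ezh2 are floxed. The control group held 4 embryos labelled Shh-cre, for which the labels name no floxed allele. All 8 were on a mixed C57BL/6 x 129S6 background, and both groups carried the Cre driver. Shh is made by the epithelium of the embryonic lung, so deletion is aimed at epithelial cells, while the RNA came from the whole organ. The series lists 4 litters of 2 embryos (mutants 1 and 2, mutants 3 and 4, controls 1 and 2, controls 3 and 4), none with both genotypes. In whole-lung RNA, fewer cells of a type and less RNA per cell cannot be told apart.

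ADAMTS proteins are secreted zinc metalloproteases that act in the extracellular matrix and on the cell surface, and they carry thrombospondin repeats that bind matrix. Subgroups of the family cut large proteoglycans such as versican and aggrecan, trim the amino ends of fibrillar procollagens, or act on fibrillin microfibrils. ADAMTS-like proteins have the repeats but lack the protease domain, and several of them bind fibrillin. In the developing lung the matrix between epithelium and mesenchyme is remodelled as the airways branch. The values below are log2 expression per probe set, on which a step of 1 is a 2-fold step in signal. Signals of different probe sets are not on a common scale, so levels were not compared between genes.

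The arrays had medians of 7.05 to 7.12 on the log2 scale and pairwise correlations of 0.986 to 0.995 over all probe sets. The lung epithelial genes Sftpc and Nkx2-1 were well above the array medians in all embryos: the surfactant gene averaged 12.93 in mutants and 12.85 in controls, and the regulator gene averaged 10.74 in mutants and 10.79 in controls. Ezh2 averaged 11.78 ± 0.02 in mutants and 11.87 ± 0.05 in controls (SD, n = 4 each) (limma, BH-adjusted p 0.652). All 4 mutants lay below all controls. Cells other than epithelium keep the gene, and its probes may lie outside the floxed part, so the check of the genotype labels is a weak one. Mutant 3, control 1 and control 2 had low Xist values of 6.37 to 6.74 together with high Kdm5d and Eif2s3y, which lie on the Y chromosome, and the other 5 embryos had Xist values of 12.61 to 13.00.

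Among the 10 genes, Adamtsl3 and Adamts1 rose in mutant lungs, Adamts18 fell, and 7 did not pass the test. Over all 22180 genes, 0.852% passed, 0.604% upward and 0.248% downward, in limma at a threshold of 0.05 on the p adjusted by Benjamini and Hochberg (BH), and 9.87% had an unadjusted p under 0.05. The mutant and control values did not overlap for 5 genes that lay higher in mutants (Adamtsl3, Adamts1, Adamts9, Adamts17 and Adamts16) and for Adamts18, which lay lower. For Adamts16 the gap was slight, with the lowest mutant at 6.556 and the highest control at 6.548. Over all genes the groups did not overlap for 8.07%, 4.48% higher and 3.6% lower in mutants. For each of these 6 genes the exact two-sided permutation p was 0.0286, which is as low as 4 against 4 can go with littermates taken as independent. Nothing is read from the counts, since the genes were picked with the differences known.

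**Figure D1:**
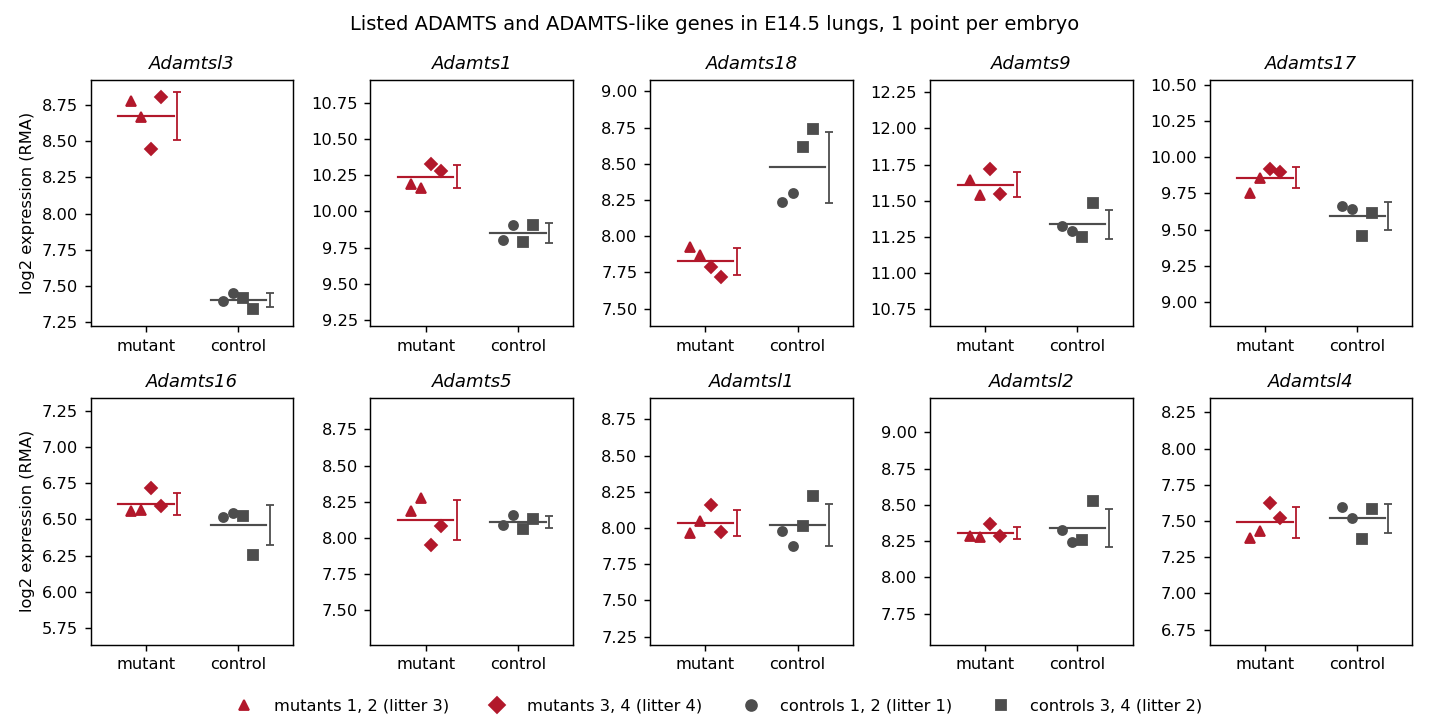
Log2 expression (RMA, vertical axis) of the 10 listed genes in mutant and control lungs, with 1 point per embryo, marker shape for the litter, a line for the group mean and a bar for its SD (n = 4 each). Every panel spans the same log2 range; Adamtsl3 separates the groups most widely (8.44 to 8.81 in mutants, 7.34 to 7.46 in controls), and in Adamts18 the controls split by litter.

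Adamtsl3 encodes punctin-2, a secreted ADAMTS-like glycoprotein without protease activity. It had log2 values of 8.78, 8.66, 8.44 and 8.81 in mutants 1 to 4, against 7.40, 7.46, 7.42 and 7.34 in controls 1 to 4. The 4 mutants all lay about a full log2 unit or more above every control, and mutant 3 was the lowest of its group. The means were 8.67 ± 0.17 in mutants and 7.40 ± 0.05 in controls (SD, n = 4 each). The log2 change was 1.27 ± 0.09 (SE), or 2.41-fold, with a 95% interval of 1.07 to 1.47 (limma, BH-adjusted p 4.34e-05). The spread of the mutants was larger than that of the controls, and both were far smaller than the difference.

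Adamts1 encodes a protease that cuts versican and aggrecan. Its values were 10.19, 10.16, 10.33 and 10.28 in mutants, against 9.80, 9.91, 9.79 and 9.91 in controls. The groups did not overlap, and the lowest mutant was mutant 2. The log2 change was 0.39 ± 0.06 (SE), or 1.31-fold, with a 95% interval of 0.25 to 0.53 (limma, BH-adjusted p 0.0165). Without mutant 4 the change was 0.38 and the BH-adjusted p in limma was 0.0749, which ends the call. The call was also lost without the litter of controls 1 and 2 (BH-adjusted p 0.0637 in limma), that of controls 3 and 4 (0.0588) or that of mutants 3 and 4 (0.116).

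Adamts18 encodes a protease with few known substrates, which mice need for normal shape of several branched organs. Its values were 7.93, 7.87, 7.79 and 7.72 in mutants, against 8.24, 8.30, 8.62 and 8.74 in controls. All mutants lay below all controls, and controls 3 and 4 lay above controls 1 and 2. It fell by 0.65 ± 0.11 (SE) on the log2 scale, with a 95% interval of −0.89 to −0.41 (limma, BH-adjusted p 0.0188). The mean of controls 3 and 4 exceeded that of controls 1 and 2 by 0.41, the largest gap between litters of 1 genotype among the 25 family genes measured. Controls 1 and 2 had low Xist values and controls 3 and 4 high ones, so litter and sex cannot be told apart among controls. Mutant 3, with low Xist, had 7.79, between its group's other values.

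Against controls 1 and 2 alone the change of Adamts18 was −0.44, and against controls 3 and 4 alone it was −0.85. Both passed with littermates taken as independent (BH-adjusted p 0.0412 and 0.00229 in limma). With the Xist level as a covariate it was −0.72 (limma, BH-adjusted p 0.00119). In that fit the correlation within litters was −0.08, against 0.15 in the reported fit. It called 361 genes higher and 313 lower, against 134 and 55, so its p is not like for like with the reported one. The call of Adamts18 was lost without mutant 4 (log2 change −0.62, BH-adjusted p 0.0697 in limma) and without control 3 (−0.61, BH-adjusted p 0.0621 in limma). It was also lost without the litter of mutants 1 and 2 (BH-adjusted p 0.0612 in limma) or that of mutants 3 and 4 (0.182).

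For the 3 members that passed and for Adamts3, the family gene outside the list that passed, the 250 bases before the annotated transcript start are shown because PRC2, the complex of Ezh2, is known to act at stretches dense in CG. They are from RefSeq (GRCm38.p6), read 5′ to 3′ on the strand of the gene, with each CG in capitals. The windows are chr7:82335444-82335693 on the + strand for Adamtsl3, chr16:85803114-85803363 on the − strand for Adamts1, chr8:113848840-113849089 on the − strand for Adamts18 and chr5:89883335-89883584 on the − strand for Adamts3.
Adamtsl3: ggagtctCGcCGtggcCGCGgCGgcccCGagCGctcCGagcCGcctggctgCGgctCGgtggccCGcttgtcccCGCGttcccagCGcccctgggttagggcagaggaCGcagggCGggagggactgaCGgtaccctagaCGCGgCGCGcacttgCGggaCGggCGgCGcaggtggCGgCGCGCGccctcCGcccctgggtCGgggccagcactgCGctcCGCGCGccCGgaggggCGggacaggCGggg
Adamts1: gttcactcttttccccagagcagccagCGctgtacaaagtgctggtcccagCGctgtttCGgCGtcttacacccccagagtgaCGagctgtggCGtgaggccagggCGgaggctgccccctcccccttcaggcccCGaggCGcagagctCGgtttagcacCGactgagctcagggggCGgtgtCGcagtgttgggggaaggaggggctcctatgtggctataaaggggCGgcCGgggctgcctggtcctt
Adamts18: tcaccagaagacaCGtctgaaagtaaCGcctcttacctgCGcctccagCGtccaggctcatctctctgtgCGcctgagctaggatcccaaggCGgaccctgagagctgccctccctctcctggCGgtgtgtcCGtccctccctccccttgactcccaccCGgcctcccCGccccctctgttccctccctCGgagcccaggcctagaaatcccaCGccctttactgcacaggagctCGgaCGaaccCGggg
Adamts3: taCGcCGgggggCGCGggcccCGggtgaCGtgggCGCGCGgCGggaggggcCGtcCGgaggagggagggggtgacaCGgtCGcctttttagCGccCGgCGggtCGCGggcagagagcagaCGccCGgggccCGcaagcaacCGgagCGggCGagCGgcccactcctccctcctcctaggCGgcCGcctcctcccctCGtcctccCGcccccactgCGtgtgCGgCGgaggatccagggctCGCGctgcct

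The Adamtsl3 window held 39 CG, which 98.7% of the 32851 windows in the table do not exceed. The Adamts3 window held 35, and the Adamts1 and Adamts18 windows held 15 each, at or above 74.6% of windows. The median window held 6 CG, and 92.1% of windows held at least 1. Among the other members, Adamts9 had 22 CG, Adamtsl4 17, Adamts17 13 and Adamtsl2 8, none of which passed the test of expression. Adamts14 and Adamts20, with 35 and 32, did not pass either. The motif TATAAA, read on both strands, was in 12.4% of windows and in those of Adamts1 and Adamtsl2. No chromatin mark was measured, and a count of letters in a window is a description only.

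The remaining proteases on the list cut proteoglycans or have other roles. Adamts9, which cuts versican, had values of 11.64, 11.54, 11.72 and 11.55 in mutants, against 11.33, 11.29, 11.25 and 11.48 in controls, with no overlap. Its log2 change of 0.27 ± 0.08 (SE) gave a BH-adjusted p of 0.183 in limma. Adamts5, known from arthritis models as an aggrecanase, had 8.19, 8.28, 7.95 and 8.08 in mutants, against 8.09, 8.16, 8.06 and 8.13 in controls. Mutants 1 and 2 lay above every control and mutant 3 below every control, and the 95% interval of the log2 change of 0.01 ran from −0.15 to 0.18.

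Adamts17, mutated in a human syndrome of short stature and eye disease, had 9.75, 9.86, 9.92 and 9.90 in mutants, against 9.66, 9.64, 9.45 and 9.61 in controls. The groups were apart, and the log2 change of 0.26 ± 0.07 (SE) gave a BH-adjusted p of 0.157 in limma. Adamts16 had 6.56, 6.57, 6.72 and 6.59 in mutants, against 6.52, 6.55, 6.52 and 6.25 in controls, where control 4 alone lay well below the rest. Its log2 change of 0.15 gave a BH-adjusted p of 0.613 in limma, and without control 4 the change was 0.08. On chromosome 13 its neighbours to one side are Irx1 and Irx2, whose log2 changes were −0.24 and −0.21, and neither passed.

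The ADAMTS-like members other than Adamtsl3 overlapped between the genotypes. Adamtsl1, which encodes punctin, had 7.96 to 8.16 in mutants and 7.87 to 8.22 in controls, and the 95% interval of its change ran from −0.17 to 0.20. Adamtsl2, mutated in human geleophysic dysplasia, had 8.28 to 8.37 in mutants and 8.24 to 8.53 in controls, with an interval of −0.21 to 0.13. Adamtsl4, mutated in human lens dislocation, had 7.38 to 7.62 in mutants and 7.37 to 7.59 in controls, with an interval of −0.20 to 0.14. These intervals leave room for changes of up to about 0.2 in either direction and exclude one of the size seen in Adamtsl3.

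The rest of the family was taken from a list of 16 further genes, of which 15 were measured and Adamts2 was not analysed here. Adamts3, which trims procollagen and with Ccbe1 activates the lymphatic growth factor VEGF-C, rose, and the other 14 did not pass. Adamts3 had 8.57, 8.64, 8.68 and 8.50 in mutants, against 8.15, 8.08, 8.05 and 8.21 in controls. All mutants lay above all controls, and the litters of each genotype differed by 0.02 at most. The log2 change was 0.47 ± 0.07 (SE), or 1.39-fold (limma, BH-adjusted p 0.00704). Ccbe1 had 8.32 to 8.76 in mutants and 7.94 to 8.66 in controls and Vegfc had a log2 change of 0.08. Neither passed.

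**Figure D2:**
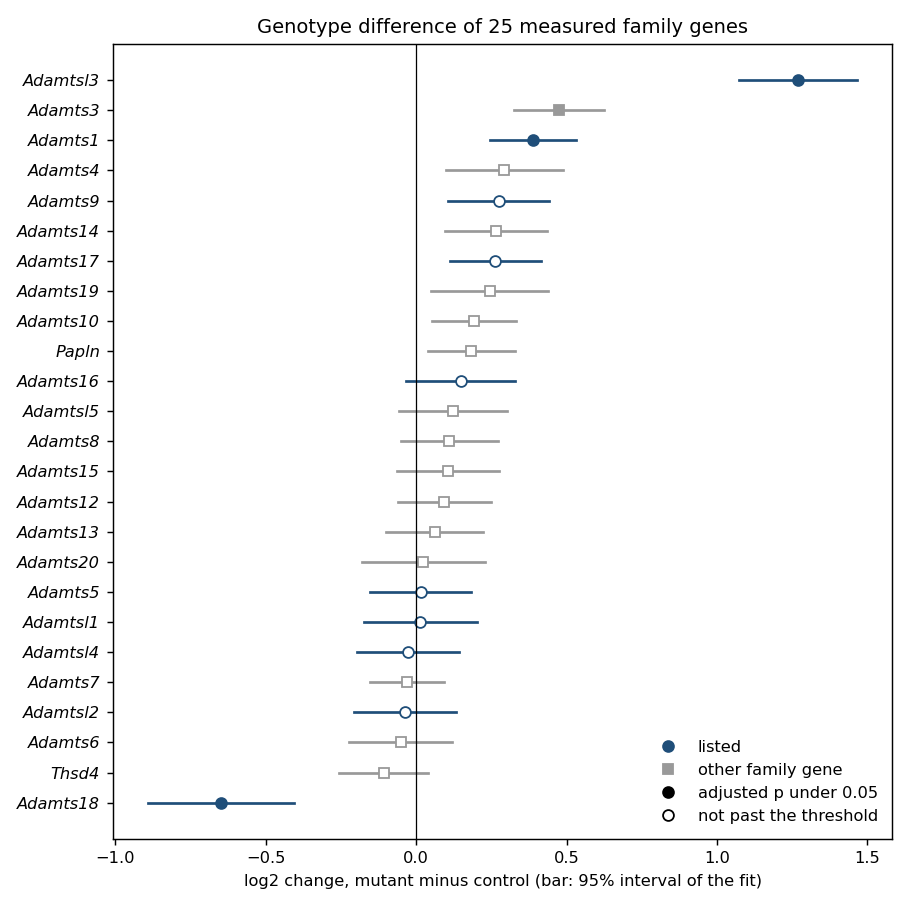
Log2 change, mutant minus control, of the 25 family genes measured (horizontal axis; bars are 95% intervals of the limma fit, n = 4 embryos per genotype; circles are listed genes, squares other family genes, filled symbols passed an adjusted p of 0.05). Adamtsl3 at 1.27 and Adamts18 at −0.65 lie at the ends, and 19 of the 25 are above 0.

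The groups did not overlap for 6 of these 15 genes, all higher in mutants, against 8.07% of all genes in either direction and 4.48% higher. Beside Adamts3 they were the aggrecanase gene Adamts4 (log2 change 0.29), the procollagen protease gene Adamts14 (0.27), Adamts19 (0.24), the fibrillin-linked Adamts10 (0.19) and Papln, which encodes papilin (0.18). Adamts14 had a second, dimmer probe set with a change of 0.22. Adamts4, Adamts14 and Papln passed only with the Xist level as a covariate. That setting called 361 genes higher and 313 lower over all genes, against 134 and 55 as reported. Of further family genes known to cut versican or aggrecan none passed: Adamts8 had a log2 change of 0.11, with −0.12 at its second probe set, and Adamts15 and Adamts20 had 0.11 and 0.02. Changes of Adamts6, Adamts7, Adamts12 and Adamts13, the von Willebrand factor protease, ran from −0.05 to 0.09. Adamtsl5 and Thsd4 had 0.12 and −0.11.

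Over the 25 family genes, 3 rose, 1 fell and 21 did not pass, and 19 changes were positive. Of all genes 0.604% rose and 0.248% fell. Of the family calls only that of Adamts3 lay outside the listed genes, which were picked with the genotype difference known. The pooled count is thus not evidence about the family. Their median log2 change was 0.11, against 0.01 over all genes, where 11728 of 22180 were positive. The median was 0.08 for the 10 listed genes and 0.11 for the other 15.

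Mutant 3 had the highest value of its group in 7 of the 10 listed genes and in 15 of the 25 family genes, and over all genes it was highest in 32%. Control 3 had the lowest value of its group in 5 of the 10 and in 15 of the 25, against 26.9% over all genes. For Adamtsl3, Adamts5 and, outside the list, Adamts8, mutant 3 was instead the lowest. Without mutant 3 the log2 changes of Adamtsl3, Adamts1, Adamts18 and Adamts3 were 1.35, 0.36, −0.64 and 0.45, and all passed. Without control 3 those of Adamtsl3, Adamts1 and Adamts3 were 1.28, 0.37 and 0.45 and passed.

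Related genes were set against each other within each embryo in 8 pairs, chosen by sequence subgroup or position after the values had been seen. The log2 difference of Adamts1 over Adamts5, adjacent protein-coding genes on chromosome 16, was 1.88 to 2.38 in mutants and 1.71 to 1.78 in controls. The changes of these genes thus differed by 0.38, with no overlap between the groups. Adamtsl3 over Adamtsl1 ran from 0.28 to 0.84 in mutants and from −0.88 to −0.42 in controls. Adamts18 over Adamts16 was 1.07 to 1.37 in mutants and 1.72 to 2.49 in controls. The pair was apart as well.

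Adamts3 over Adamts14 and Adamts10 over Adamts6 also did not overlap, with changes that differed by 0.21 and 0.24. The pairs Adamts9 over Adamts20, Adamts12 over Adamts7 and Adamts17 over Adamts19 overlapped. Their changes differed by 0.25, 0.12 and 0.02. An exact two-sided permutation test was computed for each pair with littermates taken as independent, and gave p = 0.0286 for each of the 5 pairs that were apart (0.0457 with BH adjustment over the 8 pairs). For the pairs that overlapped the exact p was 0.0857, 0.143 and 0.857. The pairs were picked with the values known, so these p-values are not independent evidence of a difference.

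Neighbours on the chromosome were read for the 2 protein-coding genes on either side of each family gene, by their order in RefSeq. Of 35 such neighbours of the members, genes of the family left out, 1 passed, against 0.852% of all genes. It was Ecm1, a matrix protein gene beside Adamtsl4, with a log2 change of 0.39 (limma, BH-adjusted p 0.0319). Those of Adamtsl3, Bnc1, Sh3gl3, Saxo2 and Efl1, had changes of 0.02, −0.21, 0.11 and −0.01. Beside Adamts1, Cyyr1 had 0.30 (limma, BH-adjusted p 0.0693). Those of Adamts18, Mon1b, Syce1l, Nudt7 and Vat1l, had −0.13, 0.24, −0.03 and 0.20. No neighbour of these 3 members passed, and with so few genes nothing is read from that.

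By the root mean square difference between profiles centred on their mean over the 8 arrays, the genes closest to Adamtsl3 were Krt4 (0.11), Mir453 (0.12) and Dapl1 (0.13). Those closest to Adamts1 were Slc7a2 (0.05), Ovol1 (0.06) and Fosl2 (0.06). Those closest to Adamts18 were Maob (0.08), Aldh1a7 (0.12) and Tlr6 (0.12). Each profile holds the genotype difference, which was of like size: the log2 changes were 1.22, 1.16 and 1.28 for the first 3 genes, 0.37, 0.41 and 0.35 for the next 3, and −0.53, −0.68 and −0.56 for the last 3. Krt4, a keratin of stratified epithelium, is also on the list of oesophagus markers.

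Substrates and partners of the family were described with the same fit. Over all genes 0.852% passed in limma and 9.87% had an unadjusted p under 0.05, the shares to hold beside the counts below. None of 12 genes of versican, aggrecan and hyaluronan matrix passed in limma (1 had an unadjusted p under 0.05), with a median log2 change of 0.01. Vcan, which encodes versican, had 0.02 with a 95% interval of −0.15 to 0.18, and Tnc, the tenascin C gene, had −0.05. Of 19 fibrillin and elastic fibre genes listed, 17 were measured, and Fbn1 and Efemp2 were not analysed here. None of the 17 passed (3 had an unadjusted p under 0.05), with a median of 0.02. Mfap2 and Fbn2, picked by signal, had 0.01 and −0.11. None of 7 procollagen genes passed (2 had an unadjusted p under 0.05), with a median of 0.10, and Col3a1 and Col1a2 had 0.05 and 0.11.

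Among 10 other substrates Fmod, the gene of the collagen-binding proteoglycan fibromodulin, fell, and 9 did not pass. Fmod had 10.29, 10.24, 10.29 and 10.34 in mutants, against 10.96, 10.91, 10.98 and 11.13 in controls. The groups were far apart, with a log2 change of −0.70 ± 0.065 (SE) (limma, BH-adjusted p 0.000315). Bgn and Thbs1, picked by signal, had 0.03 and −0.15.

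Of 12 inhibitors, activators and modifiers Pcsk6 rose and 11 did not pass. Pcsk6 encodes a proprotein convertase, an enzyme of the class that removes the inhibitory propeptide of secreted proteases. It had 10.44, 10.35, 10.48 and 10.42 in mutants, against 9.66, 9.71, 9.99 and 9.94 in controls, where controls 3 and 4 lay above controls 1 and 2. The log2 change was 0.60 ± 0.08 (SE) (limma, BH-adjusted p 0.00578). The call was lost with the means of littermates (BH-adjusted p 0.0644 in limma) and without the litter of mutants 3 and 4 (0.0693). Furin and Pcsk5, of the same class, had 0.12 and 0.06 and did not pass. The inhibitor genes Timp1, Timp2, Timp3 and Timp4 had −0.04, 0.00, −0.07 and −0.19. Pofut2, which adds fucose to the thrombospondin repeats, had −0.03. None of these 5 passed.

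Tgfb2, a ligand held in microfibril-bound complexes, rose among 9 TGF-beta genes, by 0.33 on the log2 scale (limma, BH-adjusted p 0.0481). It passed in only 9 of 24 other settings and in none of those that left out 1 embryo. Tgfb3 had −0.22 and did not pass. None of 12 ADAM and 11 MMP protease genes passed in limma (4 and 0 had an unadjusted p under 0.05), with median changes of 0.09 and 0.00. Of the ADAM genes, which encode membrane-bound relatives of the ADAMTS proteases, 4 lay higher in mutants without overlap (Adam9, Adam12, Adam23 and Adam28), against 4.48% over all genes. The mean over the ADAM list was 8.67 to 8.70 in mutants and 8.55 to 8.62 in controls. Adam10 and Adam12, picked by signal, had log2 changes of 0.02 and 0.17, and Mmp2 and Mmp14 had 0.00 and 0.10. None of 9 PRC2 genes passed, and 0 had an unadjusted p under 0.05. Rbbp4 and Rbbp7, picked by signal, had −0.01 and 0.02.

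**Figure D3:**
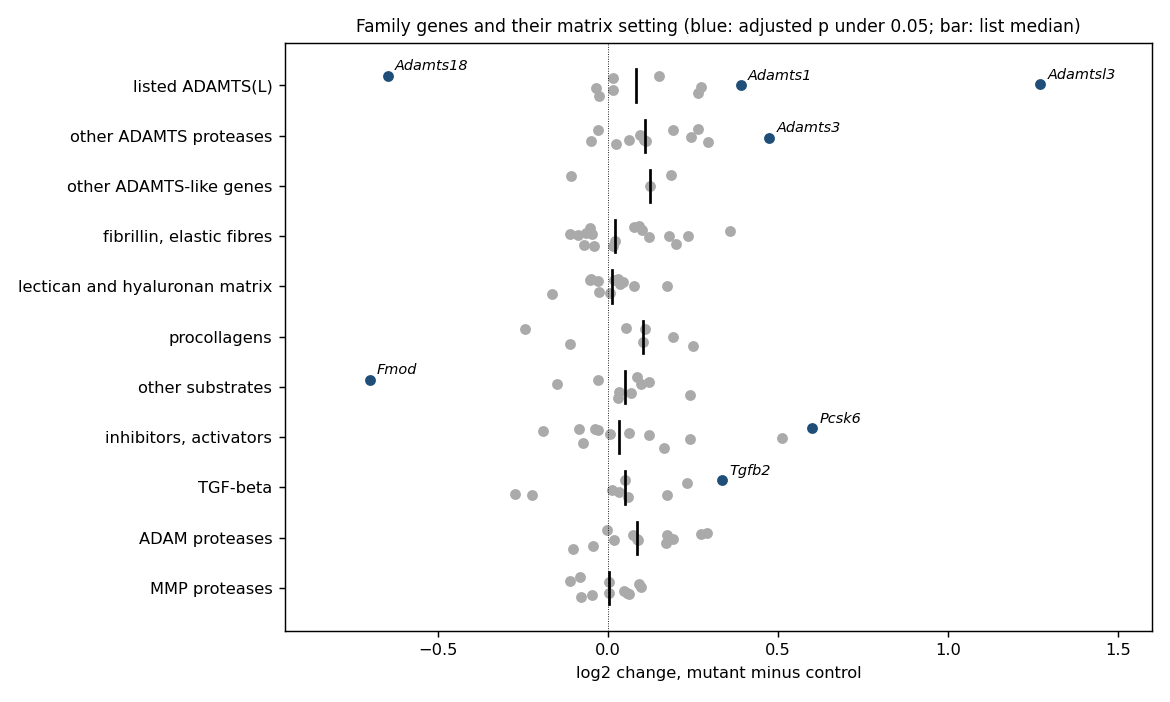
Log2 change, mutant minus control, of family genes and of substrates, partners and other metalloproteases (horizontal axis, 1 point per gene, list median as a black bar, blue for an adjusted p under 0.05; n = 4 embryos per genotype). The genes that passed outside the family are Fmod at −0.70, Pcsk6 at 0.60 and Tgfb2 at 0.33.

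Some markers of other cell types passed the test beside these genes, and their part in the results was not tested. For oesophagus, which lies next to the airway, 3 of 6 markers rose (Krt4, Pax9 and Trp63), while Krt13, Krt14 and Sprr3 had log2 changes of −0.01, −0.06 and −0.01. The list mean was 6.61 to 6.80 in mutants and 6.17 to 6.29 in controls. Krt13, Krt14 and Sprr3 averaged 6.24, 6.52 and 4.53 over the 8 arrays, below the array medians. Krt4 and Trp63 averaged 6.83 and 6.89, below them too, and Pax9 averaged 7.69. Detection was not assessed, so flat values of the dim markers may be background. For mesothelium 1 of 8 rose, Upk1b, with a list mean of 8.74 to 8.81 in mutants and 8.55 to 8.71 in controls. Krt19 did not pass at a log2 change of 0.50, and Wt1, Gpm6a and Podxl had −0.01, −0.10 and −0.03. For airway smooth muscle 1 of 9 fell, Cnn1, with a list mean of 9.80 to 9.96 in mutants and 10.03 to 10.14 in controls. In this list 0 changes were positive. Actg2 had −0.41 and lay below every control, and Myocd and Myh11 had −0.22 and −0.20, without passing. The means of these 3 lists did not overlap between genotypes. None of 12 lung epithelial, 12 mesenchymal, 10 endothelial, 6 pericyte, 10 airway cartilage, 8 heart and 8 blood and immune markers passed in limma. Over all genes 0.852% passed and 9.87% had an unadjusted p under 0.05 in limma. Lists with calls had the latter in 4 of 9 smooth muscle, 3 of 6 oesophagus, 2 of 8 mesothelium and 2 of 7 neural markers. In the other lists it was seen for 3 mesenchymal, 1 endothelial, 0 pericyte, 3 cartilage, 2 heart and 0 blood and immune markers. It was also seen for 5 lung epithelial markers. The 5 lung epithelial markers were all lower in mutants, with log2 changes of −0.33 for Etv5, −0.28 for Shh, −0.27 for Cldn6, −0.26 for Epcam and −0.20 for Foxa2, and all but Cldn6 lay below every control. Of 7 neural markers Ret fell, with a log2 change of −0.43. Stmn2 had 0.25 and lay above every control without passing, and 3 of the 7 changes were positive. The neural list mean was 7.58 to 7.64 in mutants and 7.55 to 7.74 in controls, with overlap. The lung epithelial list mean was 10.22 to 10.33 in mutants and 10.26 to 10.43 in controls, with overlap. In this list of 12, 3 changes were positive and did not pass: Sftpb at 0.37, Id2 at 0.12 and Sftpc at 0.08.

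Under 24 other settings the log2 change of Adamtsl3 stayed between 1.21 and 1.35 and that of Adamts3 between 0.44 and 0.51, and both passed in all 24. Adamts1 stayed between 0.33 and 0.45 and Adamts18 between −0.85 and −0.44, and each passed in 17 of 24. With the means of littermates as samples limma gave them BH-adjusted p values of 0.117 and 0.115. The 6 members Adamtsl1, Adamtsl2, Adamtsl4, Adamts5, Adamts9 and Adamts16 did not pass in any setting that tested them. Adamts17 passed in 1 setting, with the Xist level as a covariate (log2 change 0.29, BH-adjusted p 0.0248 in limma). That setting also gave the most calls over all genes, 361 higher and 313 lower.

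**Figure D4:**
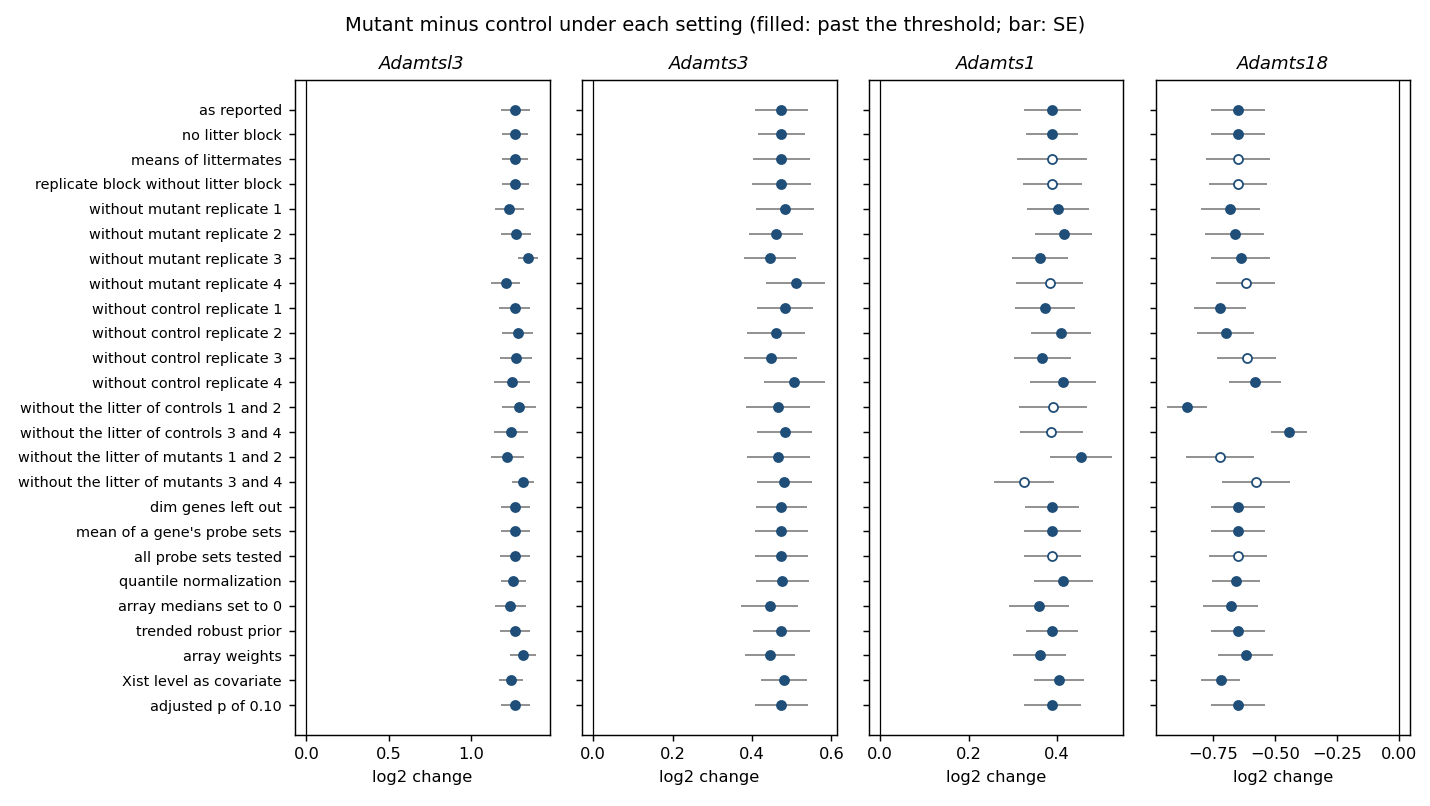
Log2 change, mutant minus control, of Adamtsl3, Adamts3, Adamts1 and Adamts18 under the reported setting and 24 others (vertical axis; bars are SE, filled points passed the threshold of the setting). Adamtsl3 and Adamts3 are filled under every setting, while Adamts1 and Adamts18 are open under 7 settings each.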

How the data were processed

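Whole-lung RNA of 8 embryos was measured with 1 Affymetrix array each. The authors deposited log2 values for each probe set. The submitters' processing notes name RMA, oligo and limma, with no version or option known here. As a rule RMA evens out the distributions of arrays and compresses changes of dim genes. Detection calls were not used. Of 41345 probe sets, 23521 had a single gene symbol in the platform annotation and gave 22180 genes, a gene with several probe sets being read from the brightest.

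Mutants and controls were compared in R 4.3.3 by limma 3.58.1. Litter entered as a random block, whose consensus correlation was 0.153 (statmod 1.5.0), with empirical Bayes moderation and two-sided Benjamini-Hochberg adjustment over the 22180 genes. The threshold was an adjusted p of 0.05. Exact permutation tests used scipy 1.17.1. Fold changes are mutant over control. For arrays, their number limits the precision.

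The members and gene lists were chosen with earlier results of these data known. Text names all members and family genes, genes that passed in related lists, and the 2 of highest signal in each related list. Other TIMP and convertase genes, Ccbe1, Vegfc, further ADAM genes, the neighbours and the markers were named after their values were seen. Alternatives covered litters, embryos left out, probe set rules, a filter on dim genes, scaling, the variance prior, array weights, Xist and the threshold.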

Additional observations from a re-analysis of the deposited data

Results flagged for a closer look

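A single embryo stood apart from the other 3 of its group in 5 of 50 groups tested over the 25 family genes. Chance alone sets apart about 1 group in 20, here 2.5. The measure was the gap to the nearest embryo over the range of the group, 0.83 (Adamts12) to 0.94 (Thsd4) in those flagged. In a tight group it can be large at a small log2 gap. Mutant 3 was highest for Adamtsl2, with a log2 value of 8.37, against 8.29 in the next, mutant 1. Mutant 4 was lowest for Adamts12, at 9.68, and mutant 2 was lowest for Thsd4, at 8.77. Control 4 was lowest for Adamts16, at 6.25, and for Adamts4, at 6.98. None of these genes passed the genotype test, and the groups of Adamts16 and Adamts4 did not overlap with this embryo in.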

How the results depend on the processing

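Counts of calls are given as higher and lower in mutants. The reported fit gave 134 and 55 genes, 2 and 1 of the listed members, and 1 and 0 of the other 15 family genes. With means of littermates the counts were 65 and 33 genes and 1 and 0 members. Without the litter block they were 190 and 95 genes. With the replicate number as a block (replicate block, no litter block) 140 and 55 genes and 1 and 0 members passed, with Adamts1 at an adjusted p of 0.0503 and Adamts18 at 0.062 in limma. The genotypes share replicate numbers that mark different litters, and deviations of same-numbered embryos correlated at −0.27 to 0.03, so no pairing was used. Without the litter of controls 1 and 2 the counts were 98 and 90 genes and 1 and 1 members. Without the litter of controls 3 and 4 they were 175 and 43 genes and 1 and 1 members. Without the litter of mutants 1 and 2 they were 112 and 64 genes and 2 and 0 members, and without that of mutants 3 and 4 they were 75 and 23 genes and 1 and 0 members. With all probe sets tested they were 99 and 34 and 1 and 0 members. Quantile normalization gave 167 and 91 genes, and array medians set to 0 gave 113 and 74, which moved the share of higher calls to 60.4%, against 70.9% as reported. The Xist covariate gave 361 and 313 genes and 4 and 0 other family genes, and an adjusted p of 0.10 gave 195 and 96 genes. With the Xist covariate the litter correlation was −0.084, against 0.153 as reported. Leaving out 1 embryo gave 73 to 157 higher and 28 to 75 lower genes, 1 to 2 members higher and 0 to 1 lower. The lowest gene counts, 73 and 28, came without mutant 4, and without control 4 they were 89 and 32. No called gene of the family changed direction in any setting. The fit without dim genes did not test Adamts16, Adamtsl4 and 6 other family genes. The causes of these shifts were not tested. The 8 arrays from 4 litters limit the precision, and the means of littermates leave 2 values per genotype.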
